A study of Neurospora crassa OR74A with 12 samples.

Results

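In *Neurospora crassa*, a filamentous fungus, 100 genes of the 10685 in the deposited table had an RNA level with H2O2 that was at most 0.25 of the untreated level in both the *upf-1*KO strain and the WT strain. They were chosen by that ratio. The level was the read count of a gene relative to the size of its library (CPM), scaled by TMM factors, which correct for differences in library composition, and the ratio was taken between group means to which 0.5 CPM was added. A gene also had to have an untreated mean of at least 10 on that scale in both strains, which 5684 of the 7878 genes that passed the filter on low counts met. A further 303 genes reached the ratio limit only in the WT strain and 41 only in *upf-1*KO. Because the ratios with H2O2 chose the genes, they are described here and not tested. The comparison between the strains was tested, but the rule used the same 4 group means, and its limits in both strains restrict how far the strains could differ.

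RNA was sequenced from mycelium of *upf-1*KO treated with 20 mM H2O2, untreated *upf-1*KO, WT treated with 20 mM H2O2 and untreated WT, with 3 libraries in each of these 4 groups. The *upf-1*KO strain is a knockout of *upf-1*, and the study describes the libraries of a group as independent pools. All 12 samples carry the label OR74A, while the study's methods name other wild-type strains, 1 of them with the *bd* mutation, and a *bd* host with a mutated *ku70* for making the knockouts. The methods also state that the strains share a *bd* background, which the label OR74A does not show. Whether *upf-1*KO and WT were alike at *ku70* and in the rest of their background in these libraries is uncertain. The *upf-1* deletion and any such difference in background cannot be told apart between the strains. The duration of the treatment is not given in the sources used here. UPF-1 is an RNA helicase at the centre of nonsense-mediated mRNA decay, the pathway that degrades mRNAs whose translation ends too early.

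H2O2 is a reactive oxygen species that fungi meet in their surroundings and make themselves, and catalases and peroxidases remove it. Yeasts under acute oxidative stress are known to raise the transcripts of antioxidant and repair genes while the transcripts of many growth-related genes become less abundant. The level of an mRNA in such a measurement depends on both its synthesis and its decay. In bulk RNA, fewer cells of one type and less RNA per cell cannot be told apart.

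The libraries held 5891672 to 7703271 reads on genes. As a check of the labels, *upf-1* reads numbered 257 to 375 in *upf-1*KO with H2O2 and 232 to 236 in untreated *upf-1*KO, against 501 to 591 in WT with H2O2 and 622 to 748 in untreated WT. These counts were not scaled, and reads on *upf-1* remained in every *upf-1*KO library. Their origin was not tested. One library stood apart. Replicate 2 of *upf-1*KO with H2O2 had a lowest Spearman correlation of 0.873 with another library of its group across all genes tested, while the lowest was 0.952 within the WT libraries with H2O2. The main counts and ratios are given with and without it. Summed levels of 11 conidial marker genes were between 11528 and 17062 CPM in *upf-1*KO with H2O2 and between 8418 and 8983 CPM in untreated *upf-1*KO, and between 2563 and 3202 CPM in WT with H2O2 and between 9276 and 11071 CPM in untreated WT. The median ratio of H2O2 to untreated over these 11 genes was 1.68 in *upf-1*KO and 2.11 in WT. In WT the summed level and the median gene thus moved in opposite directions. The part of these marker differences in the results below was not tested. None of the 100 genes is in the marker lists for conidia, sexual tissue or vegetative hyphae.

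As a set, the 100 genes held a small and even share of the untreated transcriptome. They took between 0.801 and 0.832% of the counted reads in the 6 untreated libraries. With H2O2 they took 0.0578, 0.139 and 0.0574% in *upf-1*KO and 0.0511, 0.0389 and 0.0431% in WT, so that the share in replicate 2 of *upf-1*KO was the highest of the treated libraries. The summed level was 720.5, 1237 and 687 CPM in *upf-1*KO with H2O2 and 5576, 5354 and 5365 CPM in untreated *upf-1*KO. In WT it was 849, 808 and 732 CPM with H2O2 and 6191, 6345 and 6164 CPM in untreated cultures.

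The median ratio of H2O2 to untreated over the 100 genes was 0.181 in *upf-1*KO, with a range of 0.0322 to 0.2497, and 0.145 in WT, with a range of 0.00847 to 0.243. Over all 7878 genes tested the median ratios were 1.05 in *upf-1*KO and 0.917 in WT. The ratio was smaller in WT than in *upf-1*KO for 69 of the 100 genes. Without replicate 2 of *upf-1*KO with H2O2 this number was 43, and the median ratio in *upf-1*KO was 0.139, with a range of 0.0222 to 0.252. All 100 genes had a lower level in each of the 6 libraries with H2O2 than in any of the 6 untreated libraries, which 17.62% of all genes tested did, and nothing is read from this count because the rule used the same contrast. The low level with H2O2 rested on few reads. The median gene of the set had between 14.5 and 26.5 reads in 5 of the treated libraries and 74 reads in replicate 2 of *upf-1*KO, against between 378 and 462 reads in the untreated libraries.

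**Figure D1:**
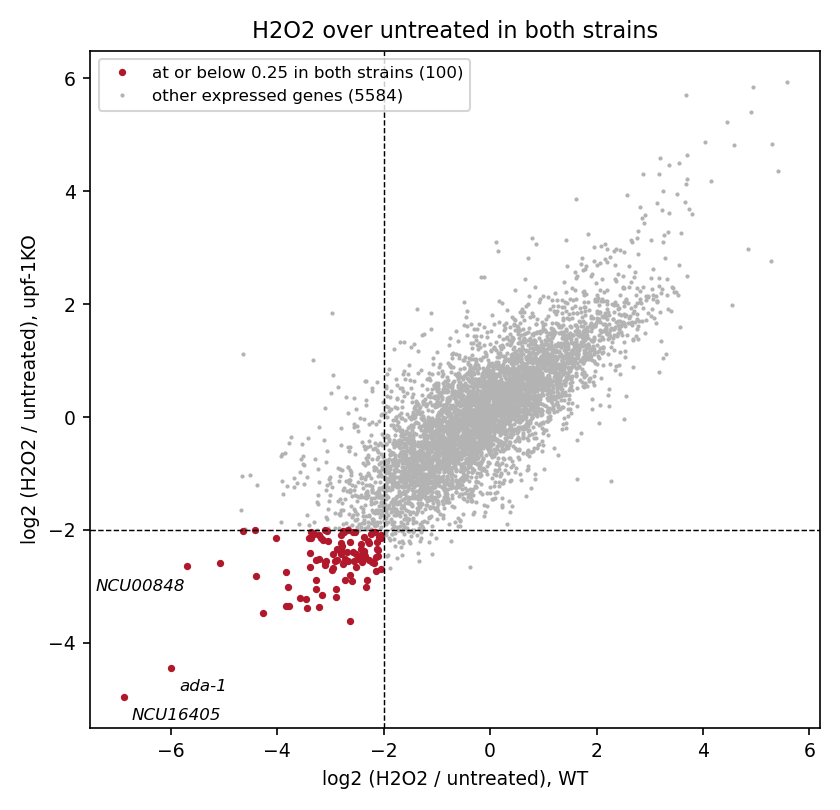
Log2 ratio of the mean level with H2O2 to the untreated mean in *upf-1*KO (vertical axis) and WT (horizontal axis) for the 5684 genes with an untreated mean of at least 10 in both strains. Red points are the 100 genes at or below 0.25 in both strains (dashed lines), and *ada-1* and NCU16405 lie farthest from the limit in *upf-1*KO.

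The ratio depended on the library and on the scaling. Against the untreated mean of its strain, the median ratio over the 100 genes was 0.139, 0.245 and 0.133 in replicates 1, 2 and 3 of *upf-1*KO with H2O2, and 0.157, 0.137 and 0.135 in those of WT. In replicate 2 of *upf-1*KO only 52 of the 100 genes were at or below 0.25, while in the other treated libraries between 90 and 98 were. That library had the highest level of its group in 79 of the 100 genes and in 45.3% of all genes tested. Without it, 236 genes met the rule, and 98 of the 100 were among them. TMM factors were between 0.802 and 1.12 in *upf-1*KO with H2O2 and between 1.49 and 1.53 in untreated *upf-1*KO, and between 0.481 and 0.602 in WT with H2O2 and between 1.30 and 1.34 in untreated WT. With library totals alone, the median log2 ratio of all genes tested was -0.61 in *upf-1*KO and -1.26 in WT, against 0.07 in *upf-1*KO and -0.13 in WT with TMM factors, and 498 genes met the rule. The 100 genes were among these 498. The highest ratio of any of the 100 genes was 0.269 under the 3 scalings tried (TMM, RLE and library totals), which the choice of the genes largely sets.

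**Figure D2:**
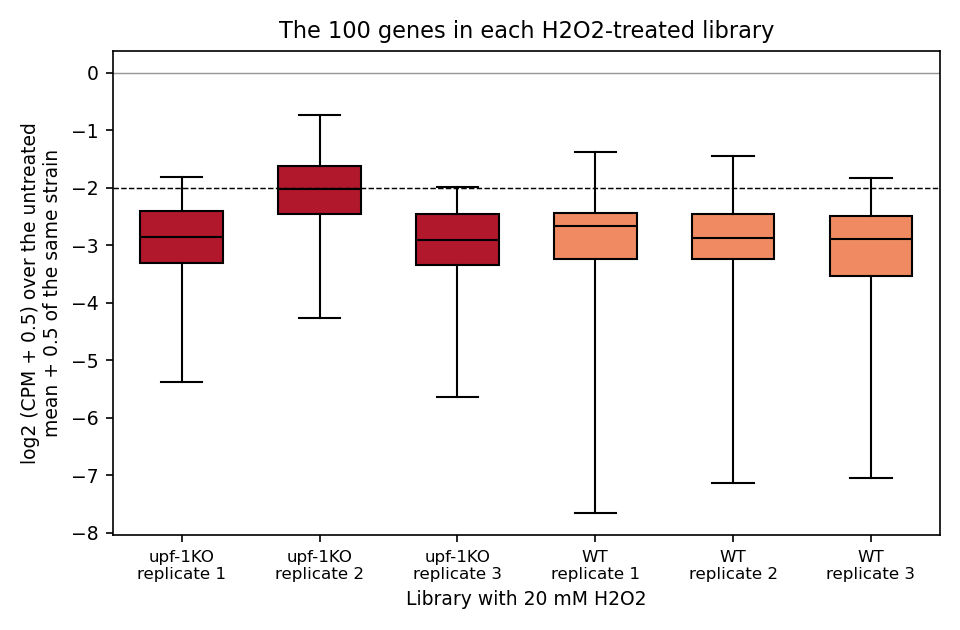
Log2 ratio of each library with H2O2 to the untreated mean of the same strain over the 100 genes, with *upf-1*KO in red and WT in orange. Boxes span the quartiles with the median as a line, whiskers reach the lowest and highest gene, the dashed line marks a ratio of 0.25, and the box of replicate 2 of *upf-1*KO lies highest, with a median ratio of 0.245.

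The genes farthest from the limit included a transcription factor gene and several genes without a symbol. NCU16405 (chromosome I, 5728526 to 5730503, NC12 build) had the lowest ratios, 0.0322 in *upf-1*KO and 0.00847 in WT. Its level was 3.05, 7.18 and 2.52 CPM in *upf-1*KO with H2O2 and 149, 155 and 137 CPM in untreated *upf-1*KO, and 0.919, 3.18 and 1.67 CPM in WT with H2O2 and 259.7, 327 and 269.8 CPM in untreated WT. As in all 100 genes, every treated library was below every untreated one. This gene overlaps *hex-1* (NCU08332), which encodes the core protein of the Woronin body, the organelle that plugs septal pores, so its reads are uncertain, since the sources used here do not say whether strand was used in counting.

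*ada-1* (NCU00499, chromosome I, 8217078 to 8220083), a transcription factor gene, had 6.78, 27.6 and 6.05 CPM in *upf-1*KO with H2O2 and 308, 293 and 308 CPM in untreated *upf-1*KO, a ratio of 0.046. In WT it had 8.5, 5.65 and 4.54 CPM with H2O2 and 443, 382 and 456 CPM in untreated cultures, a ratio of 0.0157. Replicate 2 of *upf-1*KO was above the other treated libraries and still below every untreated one. *ada-1* overlaps NCU16460 and its count is uncertain for the same reason. NCU00848 (chromosome I, 6967984 to 6970315) had 4.07, 6.67 and 5.88 CPM in *upf-1*KO with H2O2 and 37.1, 38.6 and 35 CPM in untreated *upf-1*KO. In WT it had 4.14, 0.353 and 0.955 CPM with H2O2 and 116, 107 and 133 CPM in untreated cultures. Its ratio was therefore 0.161 in *upf-1*KO and 0.0194 in WT, with the untreated level higher in WT in every library.

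The next 7 genes by ratio were NCU07933, NCU02890, NCU09030, NCU03023, NCU06758, NCU06759 and NCU05635, with ratios between 0.0906 and 0.167 in *upf-1*KO and between 0.0295 and 0.0927 in WT. NCU06758 and NCU06759 lie side by side on chromosome II and overlap each other, so reads may be shared between them, and NCU03023 and NCU05635 overlap other genes. Of the 100 genes, 27 overlap another gene, as do 2042 of the 7878 tested. At the lowest levels the ratio was limited by depth. NCU02890, NCU12022 and NCU03626 had at most 3 reads in every WT library with H2O2, and were singled out after their values were seen. NCU02890 had 5 reads in the 3 treated WT libraries together and 896 in the untreated ones. NCU12022 had 8 reads in treated WT and 896 in untreated WT, and NCU03626 had 6 in treated WT and 315 in untreated WT.

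Before treatment the genes spanned a wide range of levels. The untreated level per kilobase of exon, averaged over both strains, had a median of 10.7 CPM per kilobase over the 100 genes, 18.96 over the 5684 genes that met the untreated minimum and 12.2 over all genes tested. NCU08137 had the highest, 235 CPM per kilobase. Its level was 56, 63.5 and 63.2 CPM in *upf-1*KO with H2O2 and 334, 333 and 323 CPM in untreated *upf-1*KO, and 49.6, 51.9 and 46.1 CPM in WT with H2O2 and 389, 373 and 393 CPM in untreated WT, with little spread within any group. NCU16405, *ada-1*, NCU08090, NCU16450, NCU07933, NCU07305, NCU03023, NCU02890 and NCU04287 followed, with between 39.1 and 150.2 CPM per kilobase. NCU04287 had 6.45, 50.3 and 5.21 CPM in *upf-1*KO with H2O2, where replicate 2 was above the others, and 99.9, 92.4 and 93.6 CPM in untreated *upf-1*KO. In WT it had 5.74, 7.41 and 5.25 CPM with H2O2 and 55.2, 62.1 and 56.9 CPM in untreated cultures, with no such library.

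A gene symbol was available for 17 of the 100 genes and for 1067 of the 7878 tested. Most of these have known roles in transcription, chromatin, signalling, transport along the cytoskeleton or peroxisomes. The transcription factor genes besides *ada-1* were *hsf-1*, *nit-4*, *vad-1*, *vad-3* and *col-21*. *hsf-1* (NCU08512) encodes a heat shock factor, the family of activators that bind the promoters of chaperone genes. It had 11.2, 17.7 and 7.06 CPM in *upf-1*KO with H2O2 and 56.6, 54.2 and 52.4 CPM in untreated *upf-1*KO, a ratio of 0.227. In WT it had 6.89, 2.47 and 2.63 CPM with H2O2 and 48.5, 46.7 and 41.7 CPM in untreated cultures, a ratio of 0.0974. Replicate 1 was the highest of the treated WT libraries. The gene overlaps NCU10388 and NCU14141 and its counts are uncertain. Its paralogue *hsf-2*, which is not in the set, had ratios of 0.471 in *upf-1*KO and 0.211 in WT.

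*nit-4* (NCU08294) encodes the pathway-specific activator of nitrate assimilation. It had 3.05, 5.64 and 2.18 CPM in *upf-1*KO with H2O2 and 18.8, 17.5 and 16.4 CPM in untreated *upf-1*KO, and 2.76, 4.94 and 2.15 CPM in WT with H2O2 and 17.4, 23 and 17 CPM in untreated WT. The groups with and without H2O2 did not overlap in either strain, as in all 100 genes. Of the other *nit* genes none met the rule. *nit-3*, the nitrate reductase gene, had ratios of 0.237 in *upf-1*KO and 0.280 in WT, and *nit-6*, the nitrite reductase gene, had 0.293 in *upf-1*KO and 0.45 in WT. *nit-2*, which encodes the general activator of nitrogen catabolism, had 0.433 in *upf-1*KO and 0.408 in WT, and *nit-10*, the nitrate transporter gene, had 0.631 in *upf-1*KO and 0.489 in WT.

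Of 6 *vad* genes, named for vegetative and asexual development and coding for transcription factors, *vad-1* and *vad-3* met the rule. *vad-3* (NCU06407) had 5.94, 12.6 and 10.1 CPM in *upf-1*KO with H2O2 and 47.6, 45 and 43.1 CPM in untreated *upf-1*KO, and 4.37, 4.94 and 5.49 CPM in WT with H2O2 and 44.2, 46.5 and 41.7 CPM in untreated WT. *vad-1* (NCU00329) was at a lower level, with 2.37, 3.98 and 1.34 CPM in *upf-1*KO with H2O2 and 13.8, 9.66 and 12.8 CPM in untreated *upf-1*KO, and 1.84, 0.706 and 0.239 CPM in WT with H2O2 and 16.2, 12.9 and 13.5 CPM in untreated WT. In both genes the treated libraries lay below all untreated ones, as in all 100 genes. *vad-5* reached 0.249 in *upf-1*KO and had 0.370 in WT, and *vad-6* had 0.316 in *upf-1*KO and 0.298 in WT. *vad-4* had 0.618 in *upf-1*KO and 0.414 in WT, and *vad-2* had 1.02 in *upf-1*KO and 0.866 in WT, close to the untreated level. *col-21* (NCU03489), a colonial growth gene that encodes a transcription factor, had 1.24 ± 0.533 CPM in *upf-1*KO with H2O2 and 12.5 ± 1.99 CPM in untreated *upf-1*KO (SD, n = 3), and 1.49 ± 0.161 CPM in WT with H2O2 and 11.4 ± 1.91 CPM in untreated WT (SD, n = 3). It was among the least abundant genes of the set.

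**Figure D3:**
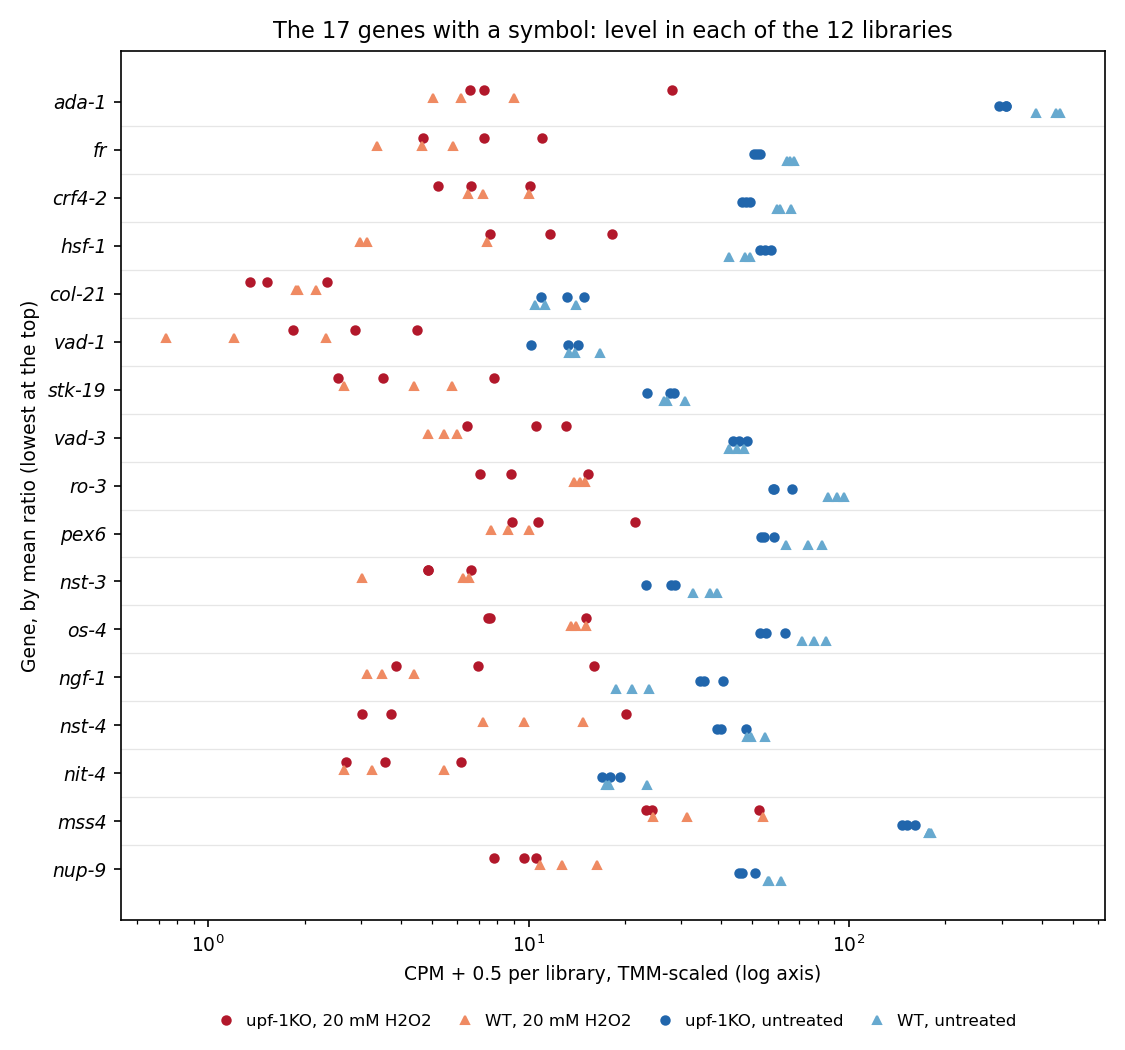
Level of the 17 genes with a symbol in each of the 12 libraries, as CPM + 0.5 on a log axis, with *upf-1*KO as circles, WT as triangles, libraries with H2O2 in red and orange and untreated libraries in dark and light blue. In all 17 genes the 6 libraries with H2O2 lie left of the 6 untreated libraries, as they do in 17.62% of all genes tested. The rule used the same contrast, so nothing is read from this separation. The rightmost treated circle of *ada-1* is replicate 2.

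The chromatin genes were *ngf-1*, *nst-3*, *nst-4* and *crf4-2*. *ngf-1* (NCU10847) encodes a histone acetyltransferase related to GCN5 of budding yeast. It had 6.45, 15.5 and 3.36 CPM in *upf-1*KO with H2O2 and 40.1, 34.9 and 33.8 CPM in untreated *upf-1*KO, and 2.99, 3.88 and 2.63 CPM in WT with H2O2 and 23.2, 20.5 and 18.2 CPM in untreated WT. Its treated *upf-1*KO libraries were spread widely, with replicate 2 above the other 2, and the gene overlaps NCU00943 and NCU16421. *nst-3* (NCU03059) and *nst-4* (NCU04859) encode sirtuins, NAD-dependent protein deacetylases. *nst-3* had 6.11, 4.36 and 4.37 CPM in *upf-1*KO with H2O2 and 27.4, 28.2 and 22.8 CPM in untreated *upf-1*KO, and 2.53, 6.0 and 5.73 CPM in WT with H2O2 and 36.4, 38.2 and 32.1 CPM in untreated WT. *nst-4* had 3.22, 19.6 and 2.52 CPM in *upf-1*KO with H2O2 and 47.2, 39.4 and 38.3 CPM in untreated *upf-1*KO, and 14.2, 9.17 and 6.69 CPM in WT with H2O2 and 47.6, 54.3 and 49.1 CPM in untreated WT. Replicate 2 was far above the others among the treated *upf-1*KO libraries of *nst-4* but not of *nst-3*.

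Of the other sirtuin genes tested, *nst-1* had ratios of 1.29 in *upf-1*KO and 0.261 in WT, and *nst-2* had 1.65 in *upf-1*KO and 1.89 in WT. *nst-6* had 0.639 in *upf-1*KO and 0.681 in WT, and *nst-7* had 2.02 in *upf-1*KO and 1.24 in WT. The family thus held genes on both sides of the untreated level. *crf4-2* (NCU00164), a chromatin remodelling factor gene, had 6.81 ± 2.53 CPM in *upf-1*KO with H2O2 and 47.2 ± 1.25 CPM in untreated *upf-1*KO (SD, n = 3). In WT it had 7.4 ± 1.88 CPM with H2O2 and 61.7 ± 3.45 CPM in untreated cultures (SD, n = 3). It was the only one of 12 tested genes with a *crf* symbol that met the rule.

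Signalling was represented by *os-4*, *stk-19* and *mss4*. *os-4* (NCU03071) encodes the MAP kinase kinase kinase at the top of the cascade that responds to hyperosmotic stress. It had 6.95, 14.6 and 7.06 CPM in *upf-1*KO with H2O2 and 62.8, 52.5 and 54.8 CPM in untreated *upf-1*KO, and 13.6, 13.1 and 14.6 CPM in WT with H2O2 and 77.3, 84.1 and 70.9 CPM in untreated WT. The other kinases of this cascade were not in the set. *os-5*, the MAP kinase kinase gene, had ratios of 1.81 in *upf-1*KO and 1.04 in WT, and *os-2*, the MAP kinase gene, had 0.811 in *upf-1*KO and 1.22 in WT. Upstream, *os-1*, the histidine kinase gene, had 0.715 in *upf-1*KO and 0.727 in WT, and *rrg-1*, its response regulator gene, had 0.412 in *upf-1*KO and 0.343 in WT. *stk-19* (NCU02245), a serine/threonine kinase gene, was 1 of 46 tested genes of the *stk* series to meet the rule, with 4.12 ± 2.8 CPM in *upf-1*KO with H2O2 and 26 ± 2.7 CPM in untreated *upf-1*KO, and 3.77 ± 1.57 CPM in WT with H2O2 and 27.6 ± 2.35 CPM in untreated WT (SD, n = 3 each).

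*mss4* (NCU02295) encodes a phosphatidylinositol 4-phosphate 5-kinase, which makes a lipid of the plasma membrane that helps organise actin. It had 22.7, 52.1 and 23.9 CPM in *upf-1*KO with H2O2 and 160.5, 151 and 146 CPM in untreated *upf-1*KO. In WT it had 53.5, 24 and 30.8 CPM with H2O2 and 178, 179 and 177 CPM in untreated cultures. Replicate 2 of *upf-1*KO and replicate 1 of WT were the highest treated libraries, and the gene overlaps NCU02294. *ro-3* (NCU03483) encodes the large subunit of dynactin, the complex that dynein needs to move cargo and nuclei along microtubules. Its level was 8.31, 14.9 and 6.55 CPM in *upf-1*KO with H2O2 and 58, 57.4 and 66 CPM in untreated *upf-1*KO, and 14, 14.5 and 13.4 CPM in WT with H2O2 and 91.2, 95.8 and 85.5 CPM in untreated WT. *ro-3* was the only one of 9 tested genes with a *ro* symbol in the set. The median ratio of these 9 was 0.656 in *upf-1*KO and 0.625 in WT. *ro-1*, the dynein heavy chain gene, had ratios of 0.892 in *upf-1*KO and 0.625 in WT. *ro-2* had 0.434 in *upf-1*KO and 0.0479 in WT, and *ro-4* had 0.570 in *upf-1*KO and 0.367 in WT. *ro-7* had 0.279 in *upf-1*KO and 0.676 in WT, and *ro-10* had 1.90 in *upf-1*KO and 1.11 in WT.

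*pex6* (NCU08373) encodes an AAA-type ATPase that recycles the import receptor of peroxisomes, the organelles where fatty acids are oxidised and H2O2 is made. It had 10.2, 21 and 8.4 CPM in *upf-1*KO with H2O2 and 57.9, 53.8 and 52.7 CPM in untreated *upf-1*KO, and 7.12, 8.12 and 9.55 CPM in WT with H2O2 and 63.2, 82.1 and 74 CPM in untreated WT. It was the only one of 20 tested *pex* genes in the set, and the median ratio of these 20 was 0.874 in *upf-1*KO and 0.562 in WT. *fr* (NCU07483), the frost gene, whose mutants branch excessively, had 7.17 ± 3.18 CPM in *upf-1*KO with H2O2 and 51.1 ± 1.08 CPM in untreated *upf-1*KO, and 4.1 ± 1.21 CPM in WT with H2O2 and 65.2 ± 1.77 CPM in untreated WT (SD, n = 3 each). *nup-9* (NCU16337) had 8.85 ± 1.41 CPM in *upf-1*KO with H2O2 and 47 ± 2.89 CPM in untreated *upf-1*KO, and 12.8 ± 2.82 CPM in WT with H2O2 and 57.5 ± 3.1 CPM in untreated WT (SD, n = 3 each). *fr* and *nup-9* each overlap another gene.

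In 9 lists of genes by function, 177 genes were tested and 1 of them, *ro-3* in the list for hyphal polarity and fusion, was in the set (0.565%, against 1.27% of all genes tested). None of the tested genes of the lists for ion and nutrient transport (18 tested of 36 symbols listed), the cell wall (27 of 41), lipid and ergosterol synthesis (7 of 22), G protein and cAMP signalling (22 of 32), the cell cycle and DNA replication (12 of 35), the vacuolar ATPase (14 of 14), the respiratory chain (27 of 33) or ribosomal proteins and translation (11 of 36) was among the 100. In the transport list, *hak-1* had ratios of 0.0507 in *upf-1*KO and 0.244 in WT. It was left out because its untreated mean in WT, 6.79 CPM, was below the minimum. The lists were matched by symbol, which 83 of the 100 genes do not have, so that genes of these functions in the set may be missed. The median ratios of these lists were higher than those of the set, which the choice of the set by ratio largely fixes. Over all genes tested the median ratios were 1.05 in *upf-1*KO and 0.917 in WT. The 39 polarity and fusion genes had a median ratio of 0.892 in *upf-1*KO and 0.686 in WT, the 27 respiratory chain genes 1.71 in *upf-1*KO and 1.96 in WT, and the 11 ribosomal and translation genes 2.53 in *upf-1*KO and 4.96 in WT.

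Gene length was not part of the rule, and the 100 genes were long. Their median exonic length was 3878 bases, with quartiles of 2760 and 4811 bases, against a median of 2209 bases and quartiles of 1567 and 3108 bases over all genes tested. The median was 2422 bases over the 5684 genes that met the untreated minimum, which was not set per kilobase. It was 3293 bases for the genes that reached the ratio limit only in WT and 3096 bases for those only in *upf-1*KO. Greater length was thus shared with the genes lowered in 1 strain only. When the 5684 genes with enough untreated expression were divided into quartiles of length, 11, 9, 18 and 62 of the 100 genes fell in the quartiles from the shortest to the longest. These numbers were 0.774, 0.632, 1.27 and 4.36% of the genes in each quartile. The median ratio of all genes in these quartiles was lower in each longer quartile, with 1.61, 1.18, 0.878 and 0.654 in *upf-1*KO and 1.55, 1.003, 0.767 and 0.513 in WT.

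When the dependence of log2 counts on exonic length was removed within each library, 51 genes met the rule, of which 39 belonged to the 100. The 39 genes kept had a median length of 2332 bases and the 61 lost 4588 bases. With this correction the highest ratio of any of the 100 genes was 0.472 in *upf-1*KO and 0.553 in WT.

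**Figure D4:**
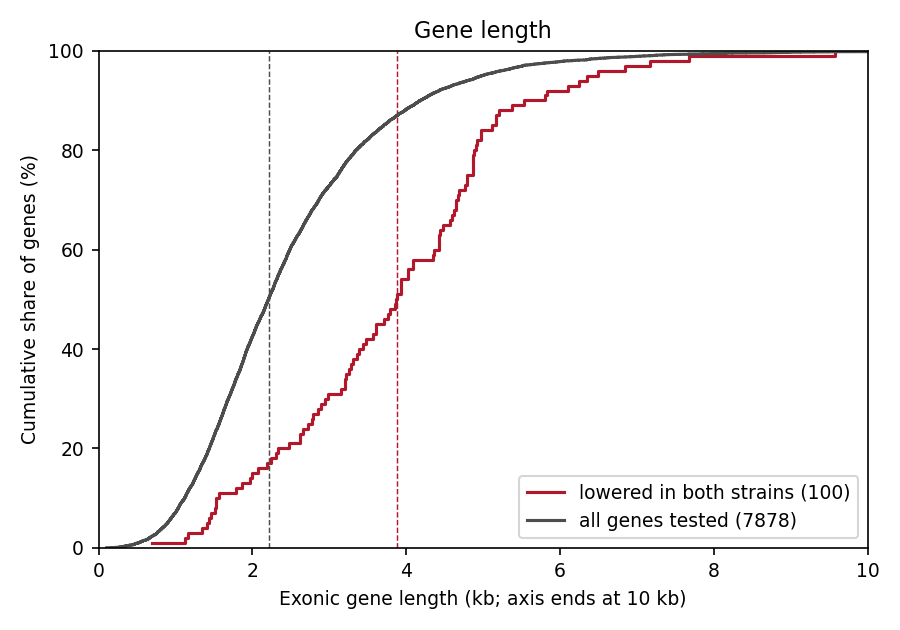
Cumulative share of genes (vertical axis, %) by exonic gene length (horizontal axis, kb) for the 100 genes (red) and all 7878 genes tested (grey), with medians as dashed lines. The red curve lies to the right, with a median of 3878 bases against 2209 bases. The genes that met the untreated minimum, not drawn here, had a median of 2422 bases.

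All 100 genes are annotated as protein coding, and they lie on all 7 chromosomes, with 26 on chromosome I, 14 on II, 11 on III, 13 on IV, 15 on V, 10 on VI and 11 on VII. These are between 1.1 and 1.66% of the genes tested on each chromosome. Direct neighbours in gene order were found in 3 cases, which are NCU06759 with NCU06758, NCU06984 with NCU06985 and NCU04309 with NCU04310. The last of these had ratios of 0.191 and 0.121 in *upf-1*KO and 0.167 and 0.104 in WT.

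Genes just inside the limit were close to those just outside it. The 5 nearest genes inside were NCU07383, NCU09219, NCU04738, NCU12022 and *pex6*, with a larger ratio of the 2 strains between 0.248 and 0.2497. The 5 nearest outside were NCU01542, *bud3*, NCU03555, NCU11000 and NCU02089, between 0.251 and 0.253. With all libraries the larger ratio of each of these 10 genes was that of *upf-1*KO. Without replicate 2 of *upf-1*KO with H2O2 the ratios in *upf-1*KO were between 0.075 and 0.251 and were larger than in WT in 7 of the 10.

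The comparison of the strains asked whether the 100 genes were at another level in *upf-1*KO cultures. In the untreated cultures, 5 of the 100 genes were higher and 3 were lower in *upf-1*KO than in WT at an adjusted p under 0.05 (edgeR's quasi-likelihood test with Benjamini-Hochberg adjustment over 7878 genes). Of all genes tested, 10.42% were called higher and 4.709% lower, and of the 5684 genes that met the untreated minimum 6.21% and 4.961%. The median log2 fold change was -0.20 in the set, -0.19 over those 5684 genes and -0.13 over all genes tested. With only the untreated libraries scaled and fitted, 25 of the 100 genes were called higher and 30 lower, against 29.7% and 26.98% of the genes tested, and the 5 and 3 genes called in the larger fit were among them. With library totals alone in place of TMM factors, 6 were higher and 2 lower, against 12.96% and 2.348% of all genes tested. The median of all genes tested was then 0.07.

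NCU06985 (chromosome IV, 4779555 to 4782841) showed the largest increase. It had 47.4, 43.3 and 41.5 CPM in untreated *upf-1*KO and 13.9, 20.1 and 14.5 CPM in untreated WT, a log2 fold change of 1.45 ± 0.32 (SE, adjusted p = 0.00927, edgeR). NCU03643, annotated in the study as cutinase transcription factor 1 beta, had 26.5, 26.7 and 27.5 CPM in untreated *upf-1*KO and 14.1, 6.56 and 12 CPM in untreated WT, a log2 fold change of 1.30 ± 0.36 (SE, adjusted p = 0.0274, edgeR). NCU05955, annotated as the xyloglucanase gene Cel74a, had 36.4, 37.5 and 35.1 CPM in untreated *upf-1*KO and 13.4, 14.5 and 19.7 CPM in untreated WT, a log2 fold change of 1.20 ± 0.26 (SE, adjusted p = 0.00792, edgeR). In all 3 genes every untreated *upf-1*KO library was above every untreated WT library. NCU17155 and NCU02526 were also higher, by 1.0 ± 0.26 and 0.77 ± 0.22 on the log2 scale (SE), with adjusted p of 0.0234 and 0.0303 (edgeR).

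The 3 genes that were lower in untreated *upf-1*KO were NCU00848, NCU12022 and NCU00142. NCU00848 had 37.1, 38.6 and 35 CPM in untreated *upf-1*KO and 116, 107 and 133 CPM in untreated WT, a log2 fold change of -1.68 ± 0.37 (SE, adjusted p = 0.00894, edgeR). NCU12022 had 11.8, 12.32 and 11.8 CPM in untreated *upf-1*KO and 35.3, 29 and 27.6 CPM in untreated WT, a log2 fold change of -1.36 ± 0.22 (SE, adjusted p = 0.00148, edgeR). NCU00142 had 18.2, 19.32 and 16.1 CPM in untreated *upf-1*KO and 28.6, 29.5 and 30.04 CPM in untreated WT, a log2 fold change of -0.72 ± 0.19 (SE, adjusted p = 0.0212, edgeR). The strains did not overlap in any of the 3 genes. The calls of NCU05955 and NCU12022 held when any single library of the 12 was left out. The number of genes called higher was 12 and lower 22 without replicate 2 of *upf-1*KO with H2O2, against 16.72% and 19.12% of all genes tested. Between 1 and 3 genes were called higher without any one of the 6 untreated libraries, against between 6.918 and 7.395% of all genes tested.

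With H2O2, 17 of the 100 genes were higher and 6 were lower in *upf-1*KO than in WT at an adjusted p under 0.05 (edgeR), against 15.51% and 11.97% of all genes tested and 13.23% and 14.36% of the 5684 genes that met the untreated minimum. The median log2 fold change was 0.23 in the set, 0.08 over those 5684 genes and 0.17 over all genes tested. Without replicate 2 of *upf-1*KO with H2O2, the median was -0.15 in the set and -0.01 over all genes tested. In that fit 11 genes of the set were called higher and 23 lower, against 17.85% and 18.19% of all genes tested. Of the earlier calls, 10 of the 17 and all 6 were among them. When only the 6 treated libraries were scaled and fitted, no gene of the set passed an adjusted p of 0.05 in edgeR, with adjusted p between 0.0837 and 0.271 for the 23 genes. Of all genes tested in that fit, 2.849% were called higher and 1.118% lower. Within the set, 12 genes were higher and 2 lower in that fit at an unadjusted p under 0.05. DESeq2 on all 12 libraries called 16 higher and 8 lower, against 14.37% and 17.69% of all genes tested. By a log2 fold change of 1 or more with an unadjusted p under 0.05 in the edgeR model of all 12 libraries, 22 genes were higher and 2 lower, against 15.38% and 5.725% of all genes tested. In the fit of only the treated libraries, 88 of the 100 genes passed the filter.

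NCU02890 showed the largest difference with H2O2. It had 1.87, 7.57 and 1.34 CPM in treated *upf-1*KO and 0.689, 0.353 and 0.239 CPM in treated WT, a log2 fold change of 3.03 ± 0.74 (SE, adjusted p = 0.0116, edgeR), which was 1.83 without replicate 2 of *upf-1*KO. NCU02727 had 4.24, 11.7 and 2.69 CPM in treated *upf-1*KO and 2.07, 1.06 and 0.716 CPM in treated WT, a log2 fold change of 2.25 ± 0.56 (SE, adjusted p = 0.0125, edgeR), which was 1.39 without that replicate. The strains did not overlap in either gene. Both calls were lost without replicate 3 of WT with H2O2.

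NCU12022 had 2.04, 3.21 and 2.52 CPM in treated *upf-1*KO and 0.689, 1.06 and 0.478 CPM in treated WT, a log2 fold change of 1.85 ± 0.35 (SE, adjusted p = 0.00334, edgeR). NCU06985 had 8.14, 13.1 and 5.38 CPM in treated *upf-1*KO and 2.53, 1.41 and 3.82 CPM in treated WT, a log2 fold change of 1.74 ± 0.39 (SE, adjusted p = 0.00753, edgeR). Both calls held when any single library was left out. NCU12022 and NCU00848 were thus lower in *upf-1*KO than in WT without treatment and higher with H2O2, while NCU06985, NCU03643 and NCU05955 were higher in both conditions. The difference between the conditions was not tested. NCU03643 had a log2 fold change of 1.74 ± 0.49 with H2O2 (SE, adjusted p = 0.0212, edgeR), and its call held in 9 of the 12 fits that leave out a library. The call of NCU00848 with H2O2 held in 2 of the 12. Both were lost without replicate 2 of *upf-1*KO with H2O2.

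Among the genes with a symbol, *hsf-1*, *ngf-1* and *vad-3* were higher in *upf-1*KO with H2O2. Their log2 fold changes were 1.55 ± 0.40 for *hsf-1*, 1.45 ± 0.47 for *ngf-1* and 0.95 ± 0.26 for *vad-3* (SE), with adjusted p of 0.0141, 0.039 and 0.0205 (edgeR). For *hsf-1* and *vad-3* every treated *upf-1*KO library was above every treated WT library, and for *ngf-1* replicate 3 of *upf-1*KO was below replicate 2 of WT. The call of *hsf-1* held in 10 of the 12 fits that leave out a library, and was lost without replicate 2 or replicate 3 of WT with H2O2. That of *vad-3* held in 8 of the 12, and that of *ngf-1* in 2 of the 12. For *ngf-1* the change was 0.66 on the log2 scale when replicate 2 of *upf-1*KO with H2O2 was left out. In the fit of all 12 libraries, none of the 17 genes with a symbol was called in the untreated comparison or called lower with H2O2. The untreated log2 fold changes were 0.25 ± 0.34 for *hsf-1*, 0.81 ± 0.39 for *ngf-1* and 0.03 ± 0.23 for *vad-3* (SE). Their adjusted p were 0.672, 0.192 and 0.939 (edgeR). For *ngf-1* every untreated *upf-1*KO library was above every untreated WT library.

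The genes lower in *upf-1*KO with H2O2 included NCU16511, NCU05211, NCU09824, NCU05502 and NCU05132. NCU16511 had 4.75, 3.72 and 3.19 CPM in treated *upf-1*KO and 12.6, 7.41 and 6.45 CPM in treated WT, a log2 fold change of -1.19 ± 0.28 (SE, adjusted p = 0.00912, edgeR). NCU05132, the longest gene of the set at 9569 bases, had 63.6, 42.1 and 48.9 CPM in treated *upf-1*KO and 90.3, 71.6 and 73.6 CPM in treated WT, a log2 fold change of -0.61 ± 0.17 (SE, adjusted p = 0.0203, edgeR). The strains did not overlap in these 2 genes. NCU12022, NCU02727, NCU16511 and NCU09824 each overlap another gene and their counts are uncertain. The log2 fold changes of NCU05211, NCU09824 and NCU05502 were -1.09 ± 0.28, -0.73 ± 0.20 and -0.70 ± 0.22 (SE), with adjusted p of 0.0146, 0.0218 and 0.0347 (edgeR). With RLE size factors, 12 genes of the set were called higher and 8 lower, against 12.35% and 15.73% of all genes tested. With library totals alone, 47 were called higher and none lower, against 52.61% and 2.869% of all genes tested. The median of all genes tested was then 0.91, against 0.17 with TMM factors. Relative to all genes, the set lay at 1.01 beside 0.91 with library totals and at 0.23 beside 0.17 with TMM factors.

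**Figure D5:**
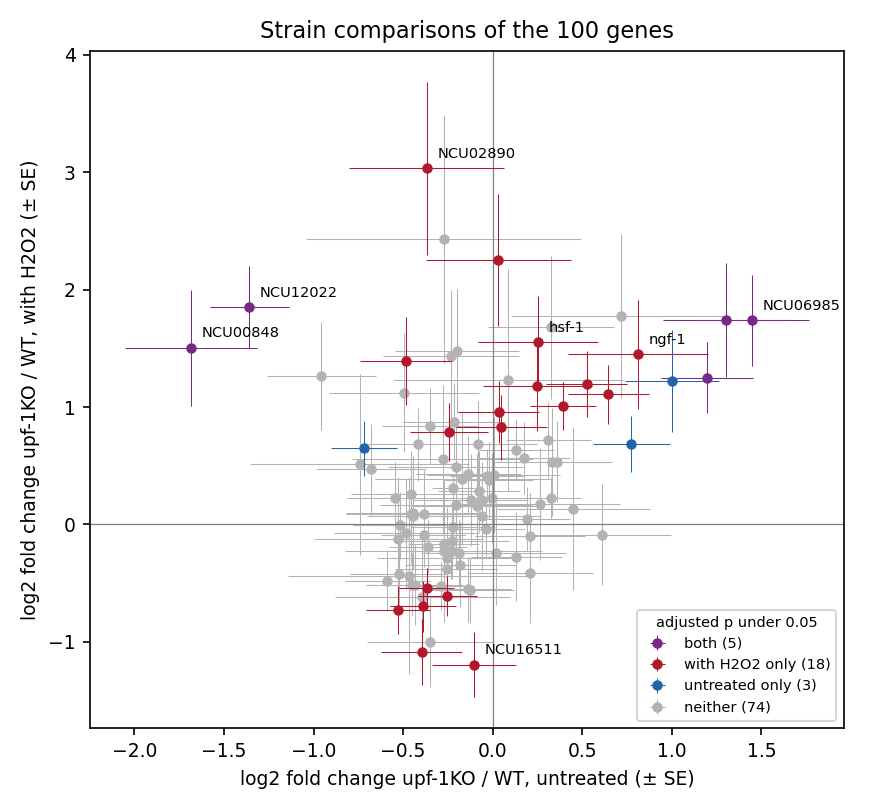
Log2 fold change of *upf-1*KO over WT with H2O2 (vertical axis) and untreated (horizontal axis) for the 100 genes, with standard errors as bars. Colours mark genes with an adjusted p under 0.05 in both comparisons (5), with H2O2 only (18), untreated only (3) or in neither (74).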

How the data were processed

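RNA was measured by RNA-seq in 12 mycelium samples, grouped by the genotype and treatment in their labels. The authors used HISAT2 2.2.1 and the NC12 build of the OR74A genome for alignment, counted reads on genes with featureCounts (Subread 2.0.1), and deposited read counts without normalization, with exonic lengths. The deposited FPKM values were not used here. Whether strand was used in counting is not given in the sources used here.

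Counts were analysed with edgeR 4.0.16 in R 4.3.3. After filterByExpr by group and TMM scaling, 7878 of the 9610 genes that had counts entered 1 quasi-likelihood model (glmQLFit and glmQLFTest) of the 12 libraries, with 4 group means, and p-values were adjusted by the Benjamini-Hochberg method. Library totals were between 5891672 and 7703271 counts. The p-values measure the spread between pools, with 1 estimate of spread for each gene shared by all 4 groups. The spread of the treated libraries therefore enters the untreated comparison, and that of the untreated libraries enters the comparison with H2O2. Alternatives were DESeq2 1.42.0, other scalings, filters, limits and pseudocounts, a loess correction for gene length (span 0.5), fits of only the 2 groups compared, a replicate block and each library left out. Reading the untreated minimum on the means without the added 0.5 CPM, and the ratios of the 100 genes without replicate 2 of *upf-1*KO with H2O2, were chosen after seeing the data. Symbols came from a RefSeq table that matched 10588 of 10685 identifiers. Named were the genes with a symbol, the 10 with the lowest ratios, the 10 with the highest untreated level per kilobase, the 5 on each side of the limit, and up to 5 called in each direction between the strains. The genes and lists were chosen with earlier results of these data known, and the gene families after the members were known. Sequences were not analysed here. Python 3.11.15 with pandas 2.3.3, numpy 2.4.6 and matplotlib 3.10.9 drew the figures.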

Additional observations from a re-analysis of the deposited data

How the results depend on the processing

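The number of genes at or below the limit was 100, and 83 with RLE size factors, 122 without a filter, 73 when every library had to hold at least 10 counts, 109 and 77 with an untreated minimum of 5 and 20, 115 and 83 with 0.1 and 1 CPM added, and 98 with the minimum read on the means alone. It was 498 with library totals alone, 57 and 182 at limits of 0.2 and 0.3, 217 with group medians (93 of the 100 kept) and 51 with the length trend removed. Leaving out 1 library gave 93 to 236 genes, with 236 without replicate 2 of *upf-1*KO with H2O2.

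Between the untreated strains (5 higher and 3 lower), DESeq2 called 6 higher and 6 lower, against 12.67% and 8.073% of all genes tested. At least 10 counts in every library gave 2 and 0, against 9.659% and 3.534% of all genes tested. There 60 of the 100 genes were tested (5 higher and 1 lower at an unadjusted p under 0.05 in edgeR). The fit of only the 2 groups gave 25 and 30, against 29.7% and 26.98%. With 1 library left out, between 1 and 12 were higher and between 1 and 22 lower. The highest numbers came without replicate 2 of *upf-1*KO with H2O2, where 16.72% of all genes tested were called higher and 19.12% lower. Without replicates 1, 2 and 3 of untreated WT, 2, 3 and 1 were higher, and without those of untreated *upf-1*KO 2, 3 and 2. Of all genes tested, between 6.918 and 7.395% were called higher in these fits. Without replicate 3 of untreated *upf-1*KO 1 was lower, against 1.86% of all genes tested. With H2O2 (17 higher and 6 lower), DESeq2 called 16 and 8, against 14.37% and 17.69% of all genes tested. Calling by a log2 fold change past 1 and an unadjusted p under 0.05 gave 22 and 2, against 15.38% and 5.725%. Library totals alone gave 47 and 0 (none lower at an unadjusted p under 0.05 in edgeR either), against 52.61% and 2.869%. At least 10 counts in every library gave 8 and 4, against 15.74% and 11.56%. The fit of only the 2 groups gave 0 and 0 (12 and 2 at an unadjusted p under 0.05), against 2.849% and 1.118%. With 1 library left out, between 6 and 22 were higher and between 3 and 23 lower. Without replicate 2 of WT 9 were higher, against 8.787% of all genes tested. Without replicate 3 of WT 6 were higher and 3 lower, against 8.448% and 9.449%. Without replicate 2 of *upf-1*KO 11 were higher and 23 lower, against 17.85% and 18.19%. The log2 fold changes of NCU09824, NCU05400, NCU05502 and NCU05132 with H2O2 turned to 0.00299, 0.216, 0.0307 and 0.0726 with library totals alone. Among the single genes called between the strains, 417 values under the alternatives kept their call, 149 kept their direction without the call and these 4 reversed. Except where another scaling, fewer genes or fewer samples make the difference by construction, the cause was not tested.

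The main model did not pair the samples by replicate number. The correlations of same-numbered libraries' deviations from their group means ran from -0.264 to 0.245. With 3 libraries in each group and no differently numbered pairs for comparison, they cannot decide whether replicate numbers pair the samples. With the replicate block, 4 genes were higher and 4 lower without treatment, against 9.254% and 3.427% of all genes tested. With H2O2, 15 were higher and 5 lower in that fit, against 12.35% and 9.673%. Low counts limit the treated levels.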
